A study of Mus musculus with 6 samples.

Results

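The 33 genes described here encode the machinery with which the endoplasmic reticulum (ER) takes in, folds and discards proteins, and the sensors that adjust it. They were chosen by name and fall into 5 classes: 4 stress sensors and regulators (Ern1, Eif2ak3, Atf6 and Xbp1), 11 chaperones and co-chaperones, 5 disulfide isomerases, 3 parts of the import channel and 10 genes of ER-associated degradation (ERAD). All 33 were among the 36706 genes of the deposited tables, and all 33 were among the 14011 genes with enough counts to test. RNA was sequenced from wild-type mouse dendritic cells grown from bone marrow in 20 ng/mL GM-CSF, a cytokine under which marrow precursors become dendritic cells and macrophages. In 3 libraries the cells had received interferon gamma (IFN-γ), and in 3 others IFN-γ together with 4-octyl itaconate (4-OI), an itaconate ester able to enter cells. All 6 libraries thus carry IFN-γ, and no library without it was used. Titles name the cells BMDMs, the usual abbreviation for macrophages, while the cell type label says dendritic cells. Doses of IFN-γ and 4-OI, durations, animals and strain are not given in the labels.

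Proteins bound for the cell surface, for secretion or for lysosomes enter the ER through the SEC61 channel. Inside, chaperones hold unfolded chains, calnexin and calreticulin bind their sugars, and disulfide isomerases join cysteines. Chains that fail to fold are picked out by lectins such as EDEM proteins and OS9, handed to a membrane complex of SEL1L, the ubiquitin ligase HRD1 (Syvn1) and derlins, and degraded by the proteasome in the cytosol. When unfolded chains build up, the sensors IRE1 (Ern1), PERK (Eif2ak3) and ATF6 start the unfolded protein response. IRE1 splices the mRNA of Xbp1 into the form that encodes the active transcription factor, and PERK slows translation. Dendritic cells are known to depend on XBP1 for their ER. Counts per gene do not separate the spliced and unspliced Xbp1 mRNA, so the level of Xbp1 given here is the sum of both.

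Binding sites of the ER stress factors are short and known, and the members' start regions were searched for them to show which members hold them. RefSeq start regions of build GRCm38.p6, from 250 bases before to 50 after the annotated start, were given for 28 of the 33 members. Those of Atf6, Hyou1, Manf, Sec61a1 and Derl1 were missing from the table. The ER stress response element ERSE, CCAAT and CCACG with 9 bases of any kind between them, to which ATF6 binds beside the factor NF-Y, was searched exactly and on both strands. It was found in 8 of the 28 members (28.6%) and in 0.119% of the 32851 start regions of the table. The matches are printed in the direction of the motif, with its fixed letters in capitals and the spacer between them in lower case.

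Calr (chr8:84847075-84847093, the opposite direction to the gene): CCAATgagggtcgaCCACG
Canx (chr11:50325800-50325818, the same direction as the gene): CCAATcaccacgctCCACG
Creld2 (chr15:88819520-88819538, the opposite direction to the gene): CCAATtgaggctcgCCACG
Dnajc3 (chr14:118937827-118937845, the same direction as the gene): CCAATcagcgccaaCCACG
Hsp90b1 (chr10:86705638-86705656, the same direction as the gene): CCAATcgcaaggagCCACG
Hsp90b1 (chr10:86705533-86705551, the opposite direction to the gene): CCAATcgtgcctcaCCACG
Pdia6 (chr12:17266491-17266509, the same direction as the gene): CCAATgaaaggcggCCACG
Syvn1 (chr19:6046532-6046550, the same direction as the gene): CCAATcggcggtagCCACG
Derl3 (chr10:75893242-75893260, the opposite direction to the gene): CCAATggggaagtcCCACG

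A related element, ERSE-II, ATTGG and CCACG with 1 base between them, was matched in 2 members and in 0.0365% of all start regions. The 2 matches are shown in the same way.

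Dnajb11 (chr16:22857852-22857862, the same direction as the gene): ATTGGcCCACG
Herpud1 (chr8:94386377-94386387, the same direction as the gene): ATTGGgCCACG

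The core of the XBP1 site, TGACGTGG, was matched in 1 member, Txndc5, and in 0.676% of all start regions. The short sequence CCACG, which lies within the elements ERSE and ERSE-II, was found in 23 members and in 32.8% of all start regions. Thus 11 members held one of the longer elements. A match describes letters only, and a missing match says only that these letters are not in this window.

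Libraries held 19656368 to 29244717 counts. By these totals alone, without TMM factors, 3 counts equal 0.103 to 0.153 CPM, counting error only. Levels in CPM are counts scaled to a common library total with TMM factors, which allow for differences in composition, so that range is not on their exact scale. On the second principal component of all tested genes, which held 10.7% of the variance, IFN-γ replicate 1 stood apart from its group (32.0, against -19.1 and -16.8), as did 4-OI replicate 3 (-14.4, against 12.4 and 5.84).

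Most of these genes did not pass the test between cells with and without 4-OI, and most differences were small. By edgeR's quasi-likelihood test with Benjamini-Hochberg adjustment over all 14011 genes at 0.05, 5 of the 33 members were higher with 4-OI, 6 were lower and 22 did not pass. Over all genes tested, 48.1% passed, 22.7% as higher and 25.4% as lower. The members that passed made up 33.3% of the 33. The 5 that rose were Dnajb9, Os9, Derl1, Derl2 and Derl3, and the 6 that fell were Eif2ak3, Xbp1, Sdf2l1, Dnajc10, P4hb and Ssr1. Levels in the 3 libraries of a group did not overlap with those of the other group in 17 of 33 members, 9 higher and 8 lower, beside 59.5% of all genes (29.0% higher and 30.6% lower). Only Derl3 both passed and changed by 2-fold or more, against 17.5% of all genes tested that did both. The median log2 fold change of the members was 0.049, beside -0.0082 over all genes. Its median size regardless of sign was 0.14, beside 0.39. In 29 of 33 members the fold change lay within 1.5-fold either way, as it did for 65.0% of all genes. In bulk RNA, fewer cells of a type and less RNA per cell cannot be told apart.

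**Figure D1:**
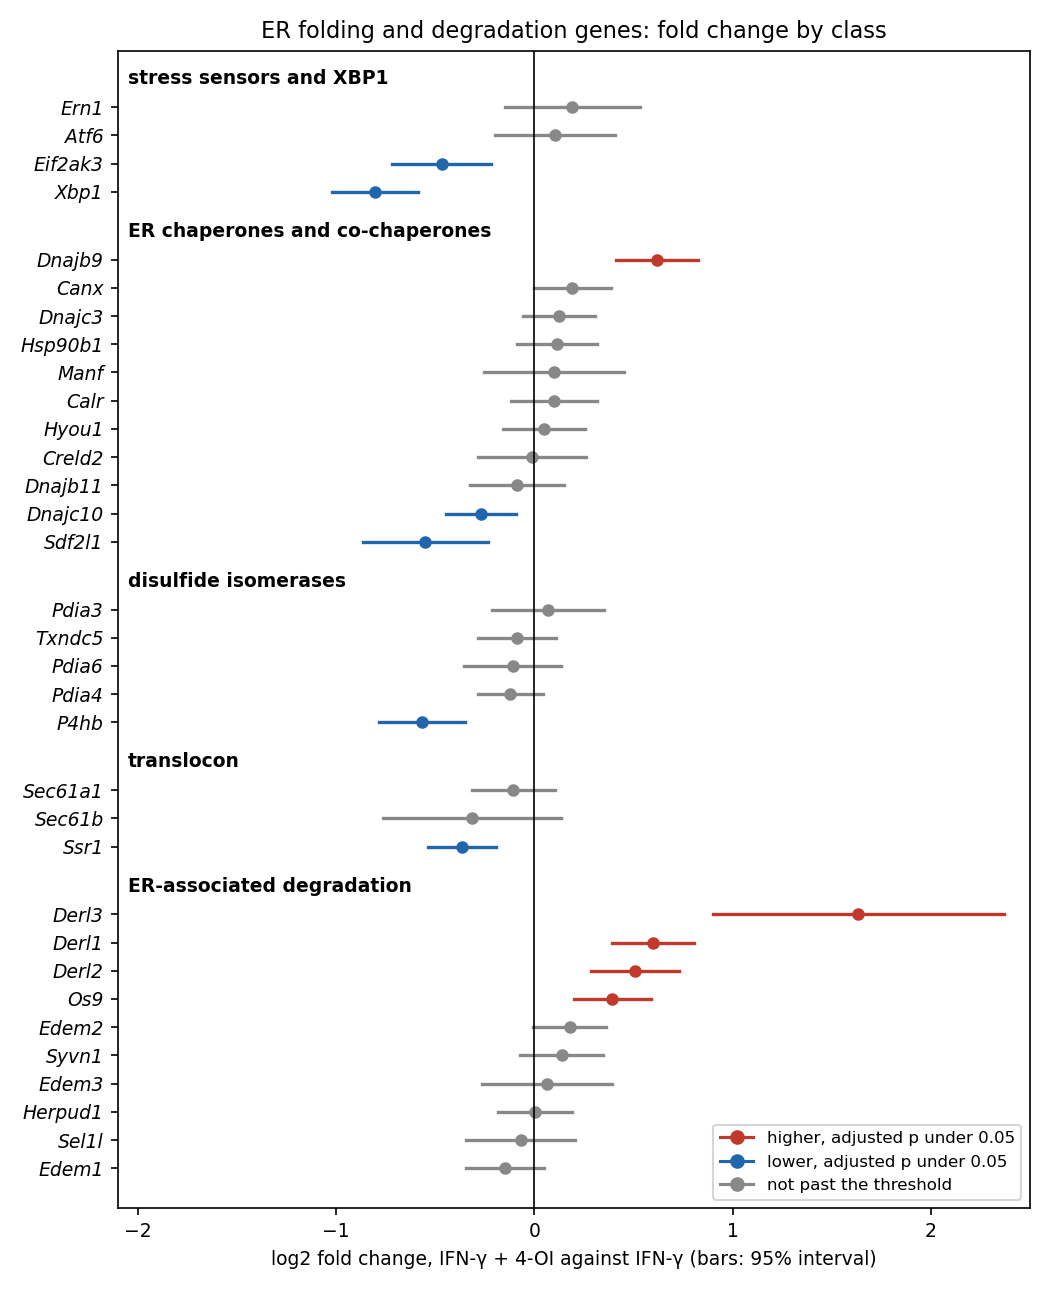
Fold change of each of the 33 members, by class. The horizontal axis is the log2 fold change of IFN-γ with 4-OI against IFN-γ, points are the fitted values of 3 libraries against 3, bars their 95% intervals, red and blue mark members past an adjusted p of 0.05. The 4 ERAD genes that passed all lie to the right of 0, and Derl3, the scarcest member, has the widest bar.

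Of the 11 members with one of the longer elements, Derl3 was higher, none was lower and 10 did not pass. Of the 17 members with a start region but no longer element, 3 were higher, 6 were lower and 8 did not pass. These are counts of few genes, they depend on the setting, and the difference was not tested. Of all genes tested, 48.1% passed. Without both libraries that stood apart, Canx and Dnajc3 of the 11 also passed as higher and Creld2, Dnajb11 and Pdia6 as lower. There 66.0% of all genes passed. With libraries scaled by their totals alone, where 51.2% of all genes passed, Dnajb11, Pdia6, Txndc5 and Herpud1 passed as lower. The start regions of 3 changed members are printed from 250 bases to 1 base before the start, in the direction of the gene, to show both cases. Capitals mark the fixed letters of the ERSE in Derl3, which reads there on the opposite strand. Dnajb9, which rose, and P4hb, which fell, hold only the short CCACG of these 4 motifs.

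Derl3 (chr10:75893148-75893397, plus strand): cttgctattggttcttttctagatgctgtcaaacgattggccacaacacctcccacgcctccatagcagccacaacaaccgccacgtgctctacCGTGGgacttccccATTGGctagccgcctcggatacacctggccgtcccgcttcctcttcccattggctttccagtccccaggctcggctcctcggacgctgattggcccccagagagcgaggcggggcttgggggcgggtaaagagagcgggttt
Dnajb9 (chr12:44210069-44210318, minus strand): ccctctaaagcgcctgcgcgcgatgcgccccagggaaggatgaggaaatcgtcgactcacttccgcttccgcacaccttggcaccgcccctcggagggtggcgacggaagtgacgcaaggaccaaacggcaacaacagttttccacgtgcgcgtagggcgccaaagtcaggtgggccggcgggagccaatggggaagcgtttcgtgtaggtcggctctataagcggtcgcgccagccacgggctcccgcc
P4hb (chr11:120573254-120573503, minus strand): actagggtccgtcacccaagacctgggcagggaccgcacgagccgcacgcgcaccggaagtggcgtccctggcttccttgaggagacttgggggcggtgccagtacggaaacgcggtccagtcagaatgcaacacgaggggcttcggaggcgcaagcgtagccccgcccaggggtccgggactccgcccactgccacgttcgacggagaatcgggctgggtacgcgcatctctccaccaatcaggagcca

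The cells' labels were set against marker genes. Itgax and H2-Ab1, from a list of 13 markers of conventional dendritic cells, stood at 514 and 1304 CPM with IFN-γ. The macrophage markers Adgre1 and Csf1r stood at 874 and 676 CPM with IFN-γ. These levels alone do not tell dendritic cells from macrophages. No library without IFN-γ was used, so whether IFN-γ set these levels was not tested. The dendritic cell marker Cd209a had 7 counts in all 6 libraries together. With 4-OI, 9 of 12 tested conventional dendritic cell markers were lower and 1 was higher. The summed level of all 13 listed was 2308 to 2646 CPM with IFN-γ and 1750.3 to 1899 CPM with 4-OI. With IFN-γ, H2-Ab1 and Itgax made up most of that sum. Monocyte markers were lower in 5 of 7 cases (sums 1757 to 2289 and 921 to 1032 CPM), and mast cell and basophil markers in 5 of 5 (sums 297 to 338 and 87.7 to 95.5 CPM). Of 10 neutrophil markers 2 rose and 6 fell (sums 1629.6 to 2355 and 1984 to 2711 CPM), and of 10 macrophage markers 2 rose and 2 fell (sums 2126 to 2201 and 2697 to 2835 CPM). The macrophage sum was higher with 4-OI although 7 of the 10 had a log2 fold change below 0 (median -0.32). Plasmacytoid dendritic cell markers were lower in 2 of 3 (sums 480.3 to 565 and 417 to 438 CPM), with Siglech at 0 counts in all 6 libraries; without IFN-γ replicate 2, IFN-γ replicate 3 or any 1 of the 3 libraries with 4-OI, 1 was lower, and without IFN-γ replicate 1, 4 were. Reads of 2 genes resembling ribosomal RNA took 0.135% to 0.192% of the total in IFN-γ libraries, against 0.210% to 2.28% in the others. What part these shifts have in the members' values was not tested.

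Among the sensors, the mRNA of PERK fell and those of IRE1 and ATF6 did not pass. Eif2ak3, the gene of PERK, stood at 39.4, 31.1 and 34.1 CPM in the IFN-γ libraries and at 27.0, 24.2 and 24.6 CPM in those with 4-OI. The groups did not overlap, and the log2 fold change was -0.47 ± 0.11 (SE, n = 3 libraries per group; edgeR adjusted p = 0.00864). Ern1, the gene of IRE1, had 85.4, 60.9 and 60.8 CPM with IFN-γ and 85.1, 80.2 and 71.2 CPM with 4-OI, replicate 1 of IFN-γ lying level with the highest library of the other group. Its log2 fold change was 0.19, with a 95% interval of -0.15 to 0.53. Atf6 had 76.1, 55.5 and 58.5 CPM with IFN-γ and 72.7, 67.8 and 63.8 CPM with 4-OI, again with IFN-γ replicate 1 highest, and a log2 fold change of 0.10 (-0.20 to 0.41). Whether they pass depends on that library. Without IFN-γ replicate 1, Ern1 was higher at 0.37 (edgeR adjusted p = 0.00559) and Atf6 at 0.25 (edgeR adjusted p = 0.0215), so that 4 of 4 genes of this class passed rather than 2. Of all genes, 54.7% passed without that library, against 48.1% with all libraries.

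Xbp1 showed the largest fall of all 33 members. Its levels were 490.0, 585 and 557 CPM with IFN-γ and 309.8, 303 and 321 CPM with 4-OI. Every library with 4-OI lay below every IFN-γ library, with little spread among those with 4-OI, and the level was 1.75-fold lower (log2 fold change -0.81 ± 0.094, SE; edgeR adjusted p = 2.68e-04). Over the other processing choices tried, its log2 fold change ranged from -1.06 to -0.74 and always passed. Summed over the class, which Xbp1 dominates, the level went from 711 ± 20.7 to 484 ± 9.94 CPM (SD, n = 3).

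**Figure D2:**
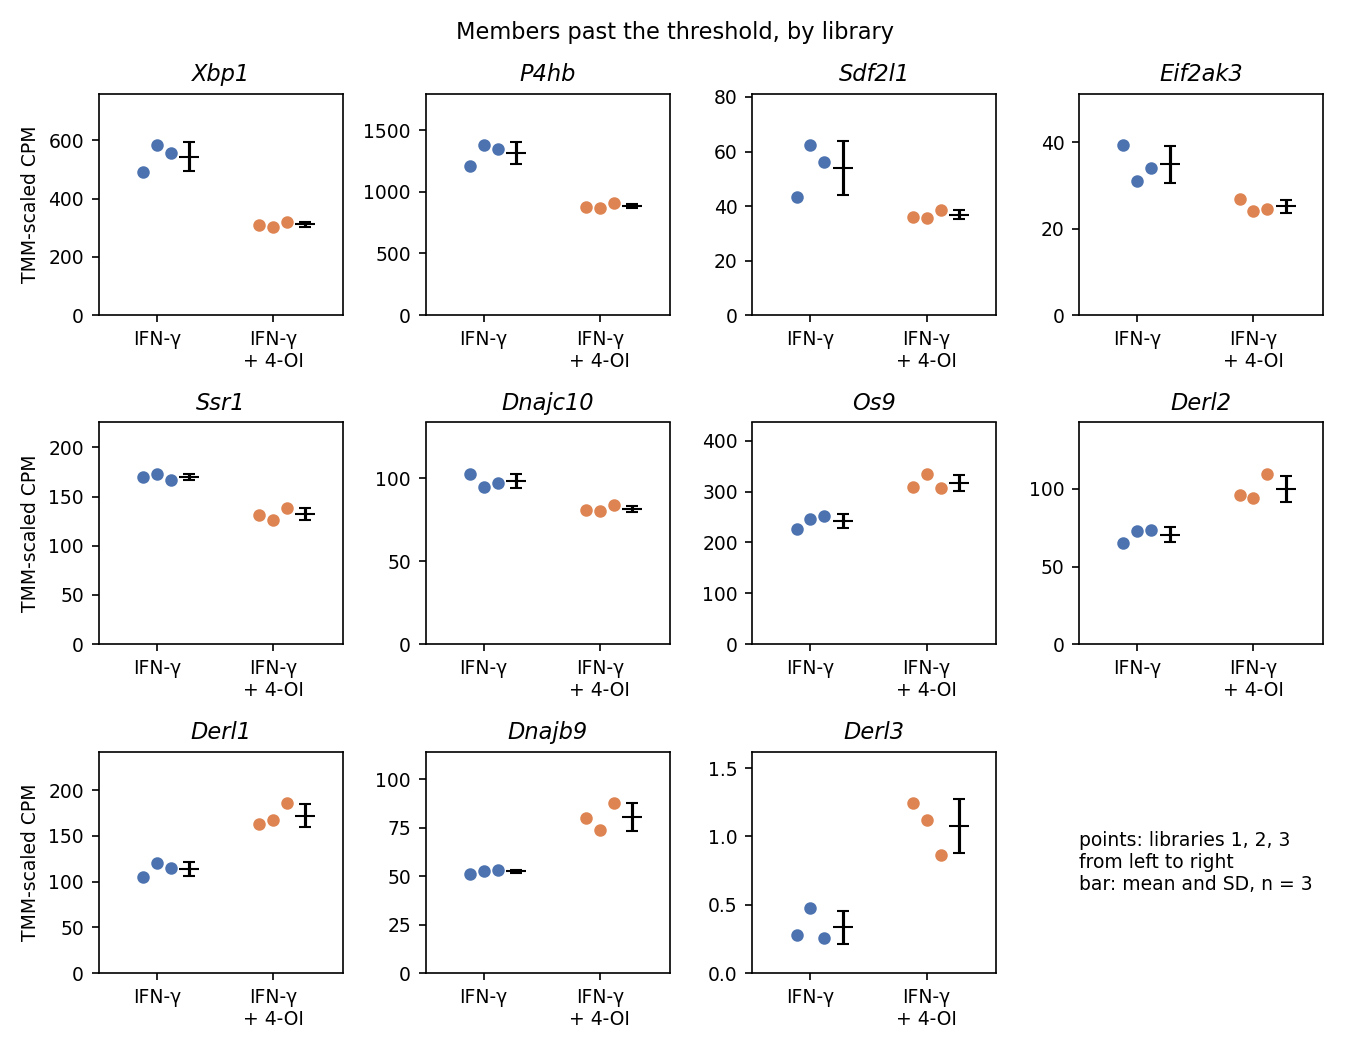
Levels of the 11 members past the threshold in each library. The vertical axes are TMM-scaled CPM from 0, points are replicates 1, 2 and 3 from left to right in each group, and black bars the mean and SD. Groups do not overlap in any of the 11. Replicate 1 of IFN-γ is the lowest of its group for Xbp1, P4hb and Sdf2l1, which fell, and for Dnajb9, Os9, Derl1 and Derl2, which rose.

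The regulators and outputs around the sensors, 16 further genes, included 7 that rose and none that fell (43.8% called, against 48.1% of all genes; median log2 fold change 0.31). With libraries scaled by their totals alone, 4 rose and 3 fell. Without the 2 libraries that stood apart from their groups, IFN-γ replicate 1 and 4-OI replicate 3, 11 rose and 1 fell. Atf4, whose protein is made when PERK or related kinases slow translation, went from 256 ± 31.8 up to 483 ± 32.4 CPM (SD, n = 3), a log2 fold change of 0.92 ± 0.11 (SE; edgeR adjusted p = 3.63e-04). Wfs1, an ER membrane protein, was 1.61-fold higher (edgeR adjusted p = 6.64e-04). Ppp1r15a, the phosphatase subunit that restores translation, was 1.46-fold higher (edgeR adjusted p = 9.45e-04).

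Of the 11 chaperones and co-chaperones, Dnajb9 rose, Sdf2l1 and Dnajc10 fell, and 8 did not pass (27.3% called, against 48.1% of all genes). Dnajb9, also called ERdj4, a J-domain co-chaperone that binds IRE1 and hands misfolded chains to degradation, stood at 51.3, 52.9 and 53.2 CPM with IFN-γ and 79.9, 73.7 and 87.9 CPM with 4-OI. The IFN-γ libraries were nearly alike and all lay below those with 4-OI. The level was 1.53-fold higher (log2 fold change 0.62 ± 0.090, SE; edgeR adjusted p = 8.33e-04). Sdf2l1, an ER protein that works with J-domain co-chaperones, stood at 43.2, 62.5 and 56.0 CPM with IFN-γ and 36.0, 35.7 and 38.7 CPM with 4-OI. The IFN-γ libraries varied, with replicate 1 lowest, and none overlapped with the other group (log2 fold change -0.55 ± 0.14, SE; edgeR adjusted p = 0.0114).

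Dnajc10, or ERdj5, a J-domain protein that reduces disulfides before degradation, had the smallest called change. Its levels were 103, 94.9 and 97.4 CPM with IFN-γ and 81.1, 80.3 and 83.6 CPM with 4-OI, with no overlap, and it was 1.20-fold lower (log2 fold change -0.27 ± 0.076, SE; edgeR adjusted p = 0.0197). Its call was lost with no filter on low counts (edgeR adjusted p = 0.0693), and also when IFN-γ replicate 3, 4-OI replicate 1 or 4-OI replicate 2 was left out (edgeR adjusted p = 0.0726, 0.0858 and 0.0913). The call of Sdf2l1 was lost without 4-OI replicate 2 (edgeR adjusted p = 0.0512). Without that library 1 member of the class passed, and without IFN-γ replicate 3 or 4-OI replicate 1, 2 did, against 3 with all libraries. With both libraries that stood apart left out, 9 of the 11 passed, 4 higher and 5 lower, where 66.0% of all genes passed.

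Among the members, the most abundant chaperones did not pass. Hspa5, an ER chaperone outside the 33 members, was higher. It stood at 438, 532 and 526 CPM with IFN-γ and 646, 660 and 787 CPM with 4-OI. Its log2 fold change was 0.48 ± 0.12 (SE, edgeR adjusted p = 0.0114). Hsp90b1, the ER form of HSP90, stood at 766, 821 and 778 CPM with IFN-γ and 836, 827 and 899 CPM with 4-OI, a log2 fold change of 0.11 with a 95% interval of -0.087 to 0.32. Its groups did not overlap, yet the gap was small beside the spread. Calreticulin, Calr, had a log2 fold change of 0.10 (-0.12 to 0.32), and Canx, calnexin, one of 0.19 (-0.0042 to 0.39). Canx passed as higher with DESeq2 and without IFN-γ replicate 1, there at 0.23 (edgeR adjusted p = 0.0149). Hyou1, an ER chaperone of the HSP110 kind, had a log2 fold change of 0.049 (-0.16 to 0.26). The co-chaperones Dnajb11 and Dnajc3, the latter an inhibitor of PERK, had values of -0.088 (-0.32 to 0.15) and 0.13 (-0.057 to 0.31). Manf, a secreted ER stress protein, had 0.10 (-0.26 to 0.45), and Creld2, an ER stress protein with isomerase activity, -0.012 (-0.28 to 0.26). With library totals alone, the values of Hsp90b1, Calr, Canx, Hyou1, Dnajc3 and Manf were below 0, and that of Manf was also below 0 without IFN-γ replicate 1; that of Creld2 was above 0 with DESeq2 and without any 1 of 4 single libraries, IFN-γ replicates 2 and 3 and 4-OI replicates 1 and 2. The intervals allow changes of up to about these bounds and do not show that the levels were equal.

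Of the 5 disulfide isomerases, P4hb alone passed (20% called, against 48.1% of all genes). P4hb, protein disulfide isomerase itself, had the highest mean level per length with IFN-γ. Its levels were 1208, 1381 and 1349 CPM with IFN-γ and 879, 869.8 and 907 CPM with 4-OI. All libraries with 4-OI lay below all those without, and the level was 1.48-fold lower (log2 fold change -0.57 ± 0.094, SE; edgeR adjusted p = 0.00156). The related isomerases Pdia3, Pdia4, Pdia6 and Txndc5 had log2 fold changes of 0.069 (-0.21 to 0.35), -0.12 (-0.29 to 0.044), -0.11 (-0.36 to 0.14) and -0.087 (-0.28 to 0.11). Without IFN-γ replicate 1, Pdia6 was lower at -0.21 (edgeR adjusted p = 0.0291), so that 2 passed, and Pdia3 was below 0, as it was without 4-OI replicate 3. Scaled by library totals alone, 4 of the 5 passed as lower and Pdia3 was also below 0. There 51.2% of all genes passed, 1719 higher and 5452 lower, with a median log2 fold change of -0.27 over all tested. With both libraries that stood apart left out, 4 of the 5 passed as lower, where 66.0% of all genes passed. Without IFN-γ replicate 1, 54.7% of all genes passed.

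Ratios of 2 genes within a library need no scaling between libraries. A difference between libraries by gene length, described below, does not cancel in a ratio of genes of unlike length. P4hb has 2861 bases, Pdia3 2643 and Calr 1943. The ratios showed that P4hb and its neighbours moved unequally. The count of P4hb over that of Pdia3 was 2.25, 2.02 and 2.07 in the IFN-γ libraries, against 1.44, 1.39 and 1.25 with 4-OI. Over that of Calr it was 1.52, 1.54 and 1.51 in the IFN-γ libraries, against 0.994, 0.950 and 0.938 with 4-OI. Counts are not scaled for length, so each ratio is read across libraries and not as a comparison of the levels of both genes. These pairs were chosen after the values were seen, so no test is given.

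**Figure D3:**
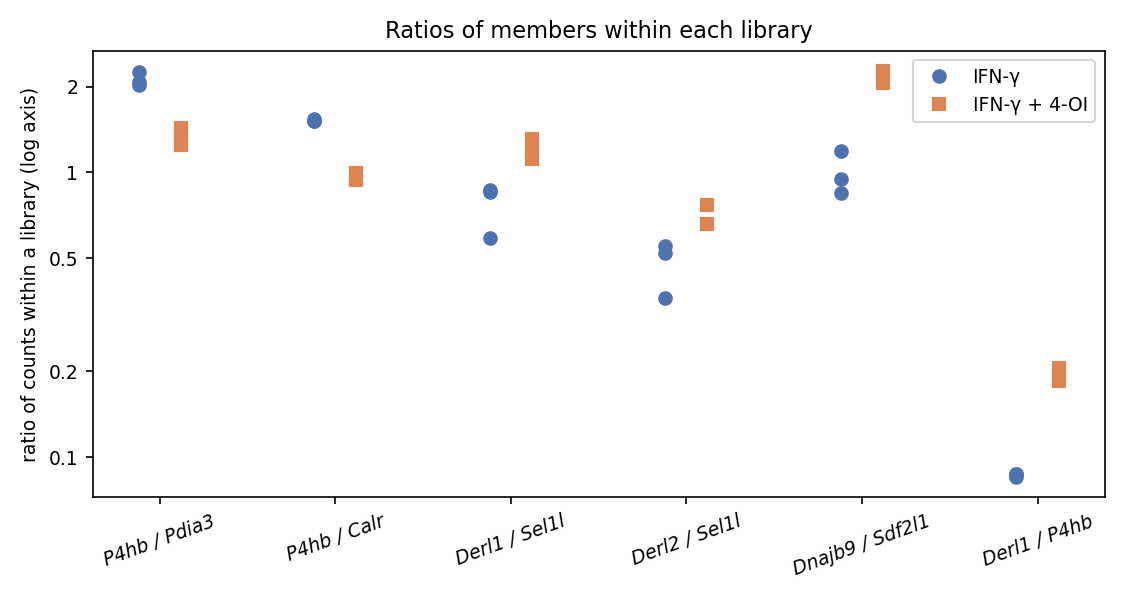
Ratios of the counts of 6 pairs of members within each library. The vertical axis is the ratio on a log scale, circles are the 3 IFN-γ libraries and squares the 3 libraries with 4-OI. For each pair the groups lie apart, P4hb falling against Pdia3 and Calr and the derlin genes rising against Sel1l and P4hb. The pairs were chosen after the values were seen.

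Of the 3 genes of the import channel, Ssr1 fell and 2 did not pass (33.3% called, against 48.1% of all genes). Ssr1, a subunit of the translocon-associated protein complex beside SEC61, stood at 170.4, 173 and 167 CPM with IFN-γ and 131, 127 and 138 CPM with 4-OI. The groups lay apart with little spread in either (log2 fold change -0.37 ± 0.074, SE; edgeR adjusted p = 0.00446). The channel's main subunit, Sec61a1, had a log2 fold change of -0.11 (-0.32 to 0.10). Sec61b, a small subunit, stood at 172, 275 and 256 CPM with IFN-γ and 169.9, 167 and 229 CPM with 4-OI. IFN-γ replicate 1 lay far below its group and 4-OI replicate 3 above its own, which left a wide interval (-0.31, -0.76 to 0.14). Without IFN-γ replicate 1, Sec61b was lower at -0.50 (edgeR adjusted p = 0.00833) and 2 of 3 passed, and with library totals alone all 3 did. Of all genes, 54.7% and 51.2% passed under these settings in turn.

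In the degradation class 4 of 10 genes rose and none fell (40.0% called, against 48.1% of all genes). Scaled by library totals alone 3 rose and 2 fell, and without both libraries that stood apart 6 rose and 1 fell. Of all genes, 51.2% and 66.0% passed there in turn. Derl1, a derlin of the membrane channel through which chains leave the ER, stood at 106, 120.4 and 115 CPM with IFN-γ and 163, 168 and 186 CPM with 4-OI. It was 1.52-fold higher with no overlap (log2 fold change 0.60 ± 0.090, SE; edgeR adjusted p = 9.68e-04). Derl2, a close relative, stood at 64.9, 72.6 and 73.8 CPM with IFN-γ and 96.2, 94.2 and 109.9 CPM with 4-OI. It was 1.42-fold higher, again with no overlap (log2 fold change 0.51 ± 0.10, SE; edgeR adjusted p = 0.00325).

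Derl3, the third derlin, was scarce. It had 7, 14 and 6 counts in the IFN-γ libraries and 23, 31 and 21 with 4-OI, or 0.277, 0.475 and 0.255 against 1.25, 1.12 and 0.864 CPM. The groups did not overlap, and the fitted rise was 3.10-fold (log2 fold change 1.63 ± 0.32, SE; 95% interval 0.90 to 2.37; edgeR adjusted p = 0.00371). Derl3 is also known as a gene of plasma cells. The plasma cell markers Jchain and Tnfrsf17 had 9 and 1 counts in all over the IFN-γ group, against 14 and 0 over the 4-OI group. Of 11 tested markers of B and plasma cells, Irf4 and Sdc1 were lower and Derl3 itself was the 1 that was higher. Without both libraries that stood apart 1 was higher and 4 were lower, and under library totals alone 1 was higher and 6 were lower. Their summed level was 299.9 to 319.9 CPM with IFN-γ and 154 to 155 CPM with 4-OI. All 3 derlins kept their direction and their call under every alternative that tested them.

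Os9, a lectin that delivers misfolded glycoproteins to SEL1L, stood at 226, 247 and 251 CPM with IFN-γ and 309, 335 and 307 CPM with 4-OI. The groups did not overlap and the level was 1.31-fold higher (log2 fold change 0.39 ± 0.084, SE; edgeR adjusted p = 0.00592). Its log2 fold change was 0.14 with library totals alone (edgeR adjusted p = 0.242). The other 6 did not pass. Sel1l and Syvn1, the scaffold and the ligase of the complex, had log2 fold changes of -0.070 (-0.34 to 0.20) and 0.14 (-0.072 to 0.35). Herpud1, which helps to assemble that complex, had 0.0029 (-0.18 to 0.19). The EDEM genes, which mark or trim glycans of chains to be discarded, had -0.15 (-0.34 to 0.050) for Edem1, 0.18 (-0.0044 to 0.36) for Edem2 and 0.065 (-0.26 to 0.39) for Edem3. Of these 6, the value of Sel1l was above 0 without IFN-γ replicate 1, that of Herpud1 took either sign (with library totals alone it passed as lower, edgeR adjusted p = 0.0372), those of Syvn1, Edem2 and Edem3 were below 0 with library totals alone, and Edem3 passed as higher without IFN-γ replicate 1, at 0.24 (edgeR adjusted p = 0.0153).

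Within libraries, both abundant derlins rose against Sel1l. The count of Derl1 over that of Sel1l was 0.589, 0.868 and 0.856 in the IFN-γ libraries, against 1.12, 1.17 and 1.31 with 4-OI. That of Derl2 over Sel1l was 0.362, 0.523 and 0.550 in the IFN-γ libraries, against 0.661, 0.660 and 0.770 with 4-OI. In both ratios IFN-γ replicate 1 was the lowest library, and all libraries with 4-OI lay above all those without. Derl1 and Derl2 have 3145 and 4222 bases against 6300 for Sel1l, so differences between libraries by length do not cancel here. Set against P4hb, Derl1 stood at 0.0875, 0.0872 and 0.0850 in the IFN-γ libraries, against 0.185, 0.193 and 0.206 with 4-OI. Dnajb9 and Sdf2l1, both partners of ER chaperones, parted as well. Their ratios were 1.19, 0.846 and 0.949 in the IFN-γ libraries, against 2.22, 2.06 and 2.27 with 4-OI. Dnajb9 has 1865 bases and Sdf2l1 1108, so the same limit holds for this pair. Here, and for Derl1 over P4hb, a member called higher is divided by a member called lower, so the parting follows from those calls.

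Some exon bases of members also belong to a gene on the opposite strand in the deposited tables, and whether counting used the strand is not given in the sources used here. Derl2 shares 6.49% of its exon bases with Mis12, which had 5464 counts in all 6 libraries against 12566 for Derl2. Os9 shares 3.00% with Agap2, which had 1707 counts against 41336 for Os9. Ssr1 shares 73.6% with Gm52041, which had 11 counts against 22643 for Ssr1.

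Levels can be set against each other between genes only per length, for which the deposited TPM were used. With IFN-γ the highest were P4hb with 1057 ± 44.8, Calr with 1021 ± 46.7 and Sec61b with 965 ± 130.0 TPM (SD, n = 3), which did not differ from each other beyond their spread. Hsp90b1, Xbp1 and Pdia3 followed with 660.2 ± 59.4, 557 ± 13.8 and 541 ± 8.19 TPM. With 4-OI the order was Calr with 839 ± 44.6, Sec61b with 598 ± 52.0, P4hb with 547 ± 38.0 and Hsp90b1 with 547 ± 25.6 TPM, of which the last 3 lay within their spread. Xbp1 stood at 245 ± 15.8 TPM with 4-OI, below Pdia3 with 436 ± 5.71. The sensors were among the lowest, Ern1, Atf6 and Eif2ak3 having 23.1 ± 7.61, 18.2 ± 5.43 and 16.7 ± 4.01 TPM with IFN-γ, and Derl3 was the lowest with 0.569 ± 0.169 TPM. TPM sum to the same total in every library and are not scaled for composition, and on that scale 28 of the 33 had a lower mean with 4-OI.

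**Figure D4:**
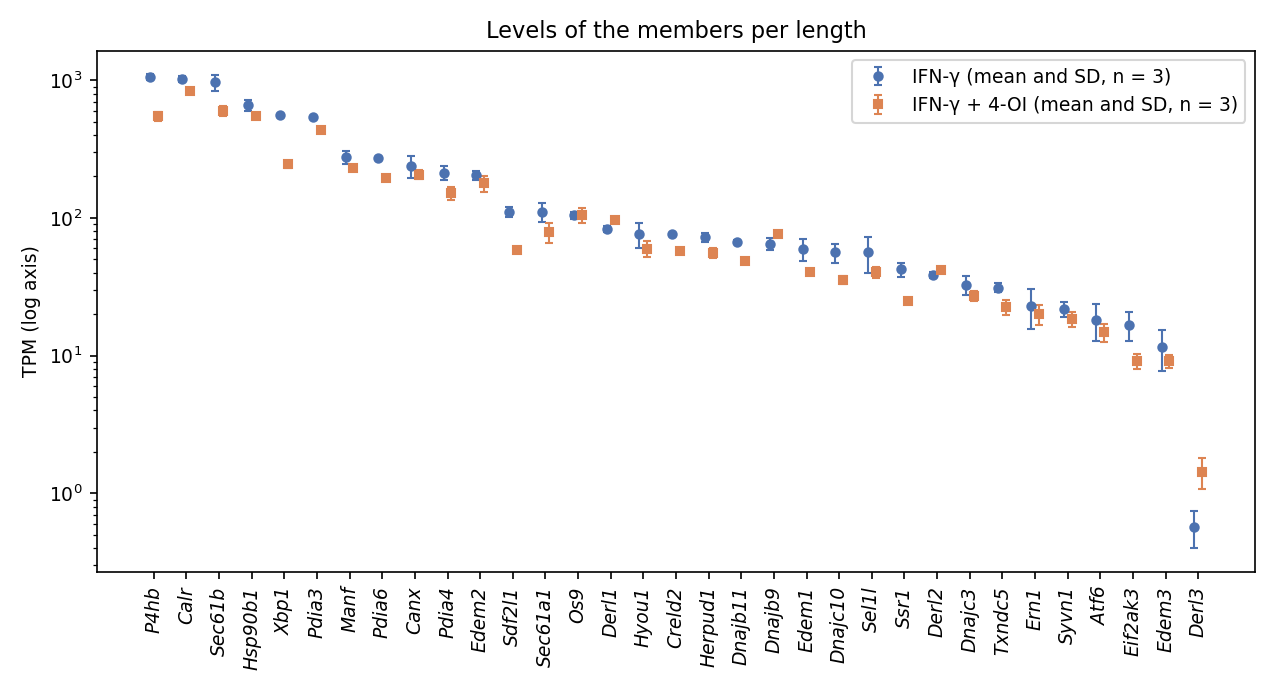
Level per length of the 33 members in both groups. The vertical axis is TPM on a log scale, points are means of 3 libraries and bars their SD, and genes are ordered by their level with IFN-γ. P4hb, first with 1057 TPM, drops to 547 TPM, and Dnajb9, Os9, Derl1, Derl2 and Derl3 are the 5 with a higher mean with 4-OI.

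The share of all counts that fell on the 33 genes was 0.827%, 0.858% and 0.851% in the IFN-γ libraries, against 0.675%, 0.681% and 0.655% with 4-OI. After TMM scaling their sum was 7731 ± 344 and 7335 ± 237 CPM (SD, n = 3), and the groups overlapped. Scaled by totals alone, 4 members were higher and 14 lower, against 5 and 6 with TMM (51.2% of all genes then passed), while the median log2 fold change of all genes tested moved to -0.27. The classes differed in their sums. Disulfide isomerases went from 2480.2 ± 202 to 2042 ± 90.1 CPM, and degradation genes from 1223 ± 12.4 to 1391 ± 18.7 CPM (SD, n = 3). In both the groups lay apart, as they did in the other classes. Chaperones summed to 2675 to 2833 CPM with IFN-γ and 2897 to 3088 CPM with 4-OI. The import channel summed to 494 to 586 and 431 to 489 CPM, and the sensors with Xbp1 to 691 to 732 and 475 to 495 CPM. Most of the drop in the isomerase sum is P4hb, which went from 1313 ± 92 to 885 ± 19.4 CPM (SD, n = 3), while the other 4 did not pass.

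Replicates of a group differed by the length of the gene, and the members followed this like other genes. For the 32 members above 10 CPM, the log2 deviation of IFN-γ replicate 1 from the mean of replicates 2 and 3 had a Spearman correlation of 0.78 with length. It was 0.79 over the 8668 genes above that level. Among the members it was -0.79 and -0.67 in IFN-γ replicates 2 and 3, and 0.55, 0.17 and -0.50 in 4-OI replicates 1, 2 and 3. These are correlations across genes of 1 library, which share its depth and preparation, and are given as a description. In IFN-γ replicate 1 the lowest was Sec61b, whose model has 552 bases, by -0.63, and the highest Edem3, with 6681 bases, by 0.50. Without that library 17 members passed, 9 higher and 8 lower, against 54.7% of all genes. Without any 1 of the other 5 libraries 9 to 11 members passed, against 43.9%, 40.0%, 38.2%, 37.4% and 39.8% of all genes without IFN-γ replicates 2 and 3 and 4-OI replicates 1, 2 and 3 in turn. Without both libraries that stood apart 26 passed, 12 higher and 14 lower, against 66.0%. With the trend on length removed within each library, 16 passed, 10 higher and 6 lower, against 56.9%. Ern1, Atf6, Canx and Dnajc3 were then among the higher, Sec61b was lower at -0.42 (edgeR adjusted p = 0.00109), and Ssr1 no longer passed (log2 fold change -0.25, edgeR adjusted p = 0.0866). This last alternative was chosen after seeing the data.

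**Figure D5:**
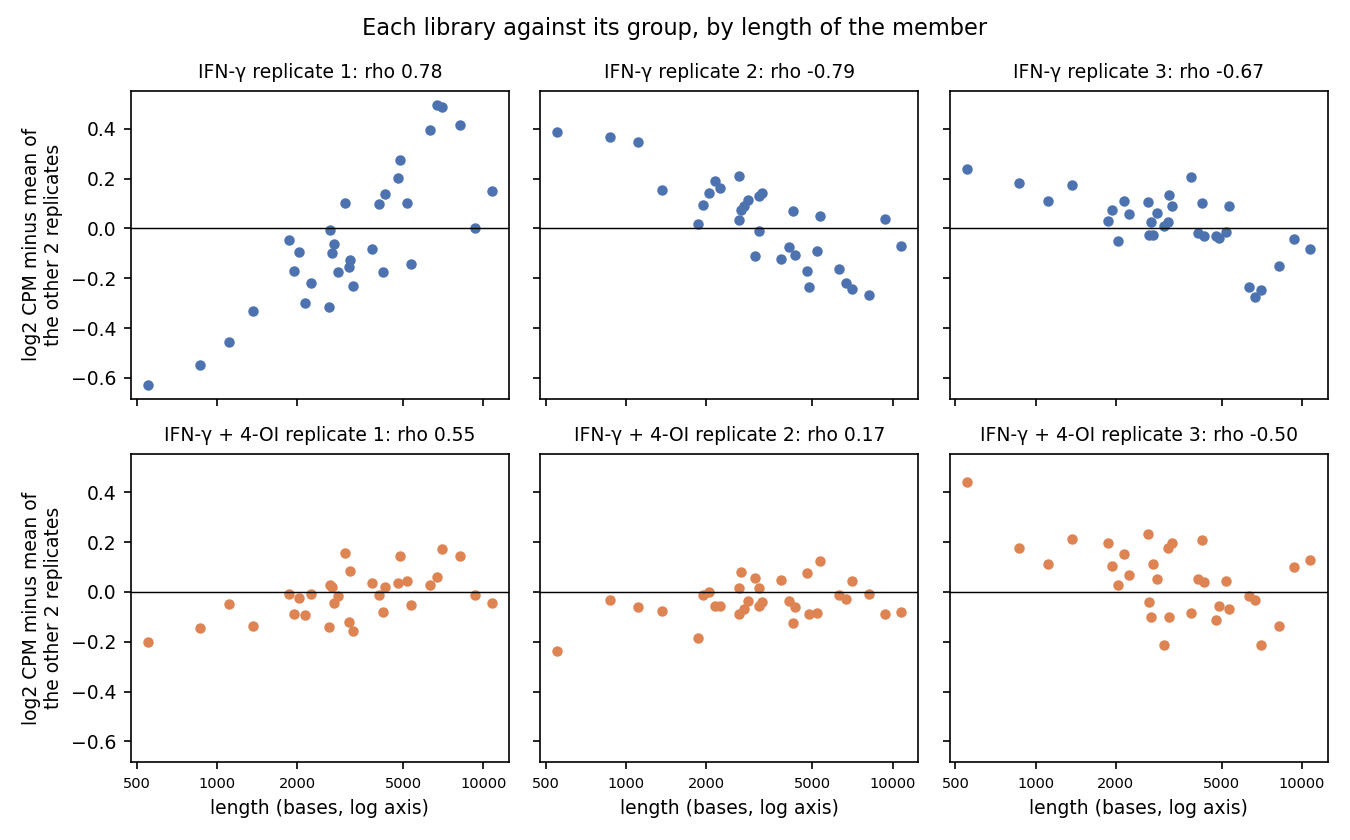
Deviation of each library from the other 2 of its group against the length of the member. The horizontal axis is the length of the gene model in bases on a log scale, the vertical axis the difference in log2 CPM, each point is 1 of the 32 members above 10 CPM, and rho in each title is Spearman's correlation. Short members lie low and long members high in IFN-γ replicate 1, where rho is 0.78.

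Around the members, further genes of the same steps were counted as whole lists. Among 34 further genes of degradation, 17 rose and 2 fell (55.9% called, against 48.1% of all genes; median log2 fold change 0.27). Vcp, the ATPase that pulls chains out of the membrane, went from 244 ± 4.85 up to 525 ± 27.6 CPM (SD, n = 3), a log2 fold change of 1.11 ± 0.082 (SE; edgeR adjusted p = 2.51e-05). Rnf185, a ubiquitin ligase of the ER, was 1.93-fold higher (edgeR adjusted p = 3.57e-05), and Erlin1, which targets an ER calcium channel for degradation, was 2.12-fold lower (edgeR adjusted p = 2.15e-05). With library totals alone 10 rose and 5 fell, and with both libraries that stood apart left out 25 rose and 4 fell.

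Of 26 tested further chaperones and co-chaperones, 13 rose and 5 fell (69.2% called; median 0.31), and with library totals alone 6 rose and 7 fell. Dnajc25 and Dnajb12, J-domain proteins, were 2.14-fold and 1.64-fold higher (edgeR adjusted p = 6.73e-05 and 1.51e-04). Calr3, a relative of calreticulin, went from 1.23 ± 0.318 to 6.42 ± 1.11 CPM (mean ± SD of 3 libraries; edgeR adjusted p = 7.66e-05). Of 16 tested further thiol oxidoreductases, 3 rose and 2 fell (31.2% called; median 0.050), among them Pdia5 (2.24-fold higher, edgeR adjusted p = 1.93e-04), Tmx1 (1.29-fold higher, edgeR adjusted p = 0.0177) and Erp29 (1.42-fold lower, edgeR adjusted p = 0.0182). This count was 3 without IFN-γ replicate 3, 4-OI replicate 1 or 4-OI replicate 3, 2 without 4-OI replicate 2, and 11 when both libraries that stood apart were left out. With library totals alone 1 rose and 6 fell, and with the trend on length removed 5 rose and 3 fell.

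Genes of the sugar-dependent steps changed in few cases. Of 12 genes of the lectin cycle and glycan trimming, 2 rose and 1 fell (25.0% called; median 0.17). Lman1 and Mcfd2, which form a cargo receptor for export from the ER, were 1.28-fold and 1.29-fold higher (edgeR adjusted p = 0.00688 and 0.0229), and Uggt1, the folding sensor that sends glycoproteins back to calnexin and calreticulin, was 1.35-fold lower (edgeR adjusted p = 0.0281). That count was 1 without 4-OI replicate 2 or 4-OI replicate 3 and 6 when both libraries that stood apart were left out, and with library totals alone none rose and 3 fell. With the trend on length removed, 6 rose and 1 fell. Of 12 subunits of the oligosaccharyltransferase, which attaches those sugars, Rpn2 and Ddost fell, 1.38-fold and 1.36-fold (edgeR adjusted p = 0.00254 and 0.00293), and none rose (16.7% called; median 0.056). Scaled by library totals alone 5 fell, with the trend on length removed 2 rose and 2 fell, and leaving out both libraries that stood apart 3 rose and 5 fell.

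Of 23 further genes of translocation, signal recognition and signal peptidase, 4 rose and 1 fell (21.7% called; median 0.13). Tram1 and Sec62, partners of the SEC61 channel, were 1.46-fold and 1.38-fold higher (edgeR adjusted p = 9.83e-04 and 0.00924), and Srp72, of the signal recognition particle, was 1.25-fold lower (edgeR adjusted p = 0.0135). Against these 5, 8 passed with DESeq2 as well as without IFN-γ replicate 1 or IFN-γ replicate 2. Without 4-OI replicate 2, 3 passed, with the trend on length removed 10, and with both libraries that stood apart left out 15. Under library totals alone 1 rose and 4 fell.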

How the data were processed

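Per the labels' protocols, RNA of 6 libraries was extracted with Trizol and prepared with a stranded mRNA kit. The authors deposited 1 table per sample, with whole-number counts per gene. The submitters' processing notes name HISAT2 and the build mm10; the sources used here do not name the counter, its strand setting or the annotation. The deposited TPM, recomputed from counts and lengths, matched within a relative tolerance of 1e-06 in 100% of values; the deposited FPKM were not tested. Of the 33 members, 1 shared a start or end with RefSeq GRCm38.p6, so the tables' coordinates are not printed.

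Groups and replicate numbers come from titles. Genes were kept by filterByExpr (minimum count 10), scaled by TMM and compared with edgeR 4.0.16 in R 4.3.3 (robust quasi-likelihood, Benjamini-Hochberg over all 14011 genes, 0.05). Fold changes are from that fit, and SE is the log2 fold change over the root of F. The test was checked on simulated counts, which had fewer changed genes than were called here and no trend on length. Alternatives were RLE, upper quartile and no factors, no filter, 1 CPM in 3 libraries, DESeq2 1.42.0, limma-voom 3.58.1, a replicate block, libraries left out, protein-coding genes, a threshold of 0.01 and, added after seeing the data, no ribosomal RNA-like genes and no trend on length. No label says that replicates came from separate cultures, so each p-value reflects the spread among these samples, which may be technical; no 2 libraries agreed within sampling noise. Members, lists and the 2 libraries left out together were chosen with earlier results of these data known. Values per library are given for members past the threshold, and of each other list the 3 genes with the smallest adjusted p; others named, and ratios, were chosen after their values were seen.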

Additional observations from a re-analysis of the deposited data

How the results depend on the processing

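None of the 11 called members changed sign under any alternative run. Eif2ak3, Xbp1, Dnajb9, P4hb, Derl1, Derl2 and Derl3 passed under each that tested them (Derl3 was not kept with at least 1 CPM in 3 libraries), while Sdf2l1, Dnajc10, Ssr1 and Os9 each lost the call at least once, as given with their values. RLE and upper quartile factors, limma-voom, protein-coding genes only and leaving out the 2 ribosomal RNA-like genes changed no call among the 33. The number of members that passed was 11 in the reported comparison, 18 with library totals alone, 26 without both libraries that stood apart, and 9 to 17 when single libraries were left out; at an adjusted p of 0.01 it was 9. Over all genes, 6736 passed, 3181 higher and 3555 lower, and with library totals alone 1719 higher and 5452 lower. With the replicate number as a block, 11 members passed, 5 higher and 6 lower, as without it, and 7513 genes in all; same-numbered libraries deviated from their group means with correlations of 0.26, -0.10 and 0.19, and not every library correlated best with its own number, so the numbers were not taken to pair the samples. The block changed no call of a member. It moved the counts of 2 other pathway lists by more than 1.5 times, oligosaccharyltransferase from 2 to 4 and translocation from 5 to 9, and raised those of regulators from 7 to 9, further chaperones from 18 to 20 and thiol oxidoreductases from 5 to 7.

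Log2 fold changes that changed sign belong to members that did not pass. With library totals alone they were -0.067 for Ern1, -0.16 for Atf6, -0.15 for Hsp90b1, -0.21 for Hyou1, -0.14 for Dnajc3, -0.16 for Calr, -0.070 for Canx, -0.16 for Manf, -0.19 for Pdia3, -0.26 for Herpud1, -0.12 for Syvn1, -0.078 for Edem2, -0.20 for Edem3, of which that of Herpud1 passed there (edgeR adjusted p = 0.0372). Without both libraries that stood apart they were -0.12 for Manf, -0.11 for Pdia3, -0.039 for Herpud1, 0.079 for Sel1l, of which those of Manf and Pdia3 passed there (edgeR adjusted p = 0.0225 and 0.0421). With the trend on length removed they were -0.047 for Herpud1, 0.030 for Sel1l. They were 6.3e-04 for Creld2 with DESeq2, -0.0092 for Herpud1 with upper quartile factors and -0.0016 for Herpud1 with at least 1 CPM in 3 libraries. Without single libraries the ranges were -0.069 to 0.23 for Manf, -0.12 to 0.056 for Creld2, -0.035 to 0.15 for Pdia3, -0.035 to 0.063 for Herpud1, -0.13 to 0.068 for Sel1l and -0.010 to 0.24 for Edem3. Beyond what the settings themselves remove, the cause was not tested. Depth limits 1 member, Derl3, with 27 counts over the IFN-γ libraries and 75 over those with 4-OI.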
